A study of Bos taurus with 9 samples.

Results

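The 9 small RNA libraries of the bovine rectal wall were divided into 2 sides chosen by 1 measured value, their content of bta-miR-143, the most abundant miRNA of the tissue. Side A held the 5 libraries in which bta-miR-143 reached at least 500000 in the deposited table, which is scaled to 1000000 reads, and side B held the 4 libraries below that value. A consisted of SS 274, SS 310, SS 299, NS 165 and NS 152, and B of NS 108, SS 287, NS 242 and SS 294, and values are listed in these orders throughout, from the highest to the lowest content of bta-miR-143. The sides were compared across the other miRNAs after bta-miR-143 had been left out and the remaining values of each library had been rescaled to 1000000 (RPM outside bta-miR-143). Because the division was made on a readout of these libraries, differences between A and B are described by the values of each library and carry no test.

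Every library came from the rectum of 1 feedlot steer, and the steers were pen-mates. In the 5 super-shedders (SS) the feces had held over 10000 CFU per g of E. coli O157, for which the 4 non-shedders (NS) had tested negative. From each steer 2 biopsies of 2 cm2 were taken 3 to 5 cm above the recto-anal junction and frozen no later than 10 min after death, and total RNA was prepared from about 100 mg of powdered whole tissue. The biopsies were not dissected into layers, so a library can hold RNA of muscle, connective tissue, epithelium, lymphoid follicles and blood in any proportion. No cell type was sorted, and a higher share of a cell type cannot be told apart from a higher content of a miRNA per cell. The labels give no batch, sequencing lane or date.

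bta-miR-143 and bta-miR-145 are processed from 1 shared precursor and are abundant in smooth muscle, where in the mouse they take part in keeping the cells contractile. bta-miR-192, bta-miR-194 and bta-miR-215 share a seed or a transcript and are typical of intestinal epithelium, as is the miR-200 family, which in mammals represses the ZEB factors and thereby maintains epithelial cells. bta-miR-142 is made in cells of the blood lineage.

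bta-miR-143 made up 73.1% of the reads of SS 274, 73.0% of SS 310, 65.3% of SS 299, 62.5% of NS 165 and 51.5% of NS 152. In B it made up 49.7% of NS 108, 32.2% of SS 287, 30.4% of NS 242 and 22.1% of SS 294. The limit of 500000 therefore fell between NS 152 at 514791 and NS 108 at 496578, which lay close together: their 95% exact binomial intervals, which cover counting error only, were 51.4% to 51.6% and 49.5% to 49.8%. The widest gap between neighbours lay inside B, between NS 108 and SS 287. Library totals ranged from 1863964 to 6314556 reads in A and from 650726 to 2710578 in B, and the 3 smallest totals all belonged to B. Outside bta-miR-143, 350204 to 1933284 reads were left, so that 1 read was worth 0.517 to 2.86 RPM outside bta-miR-143. The part of depth in the differences below was not tested.

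Both shedding groups stood on each side, with 3 SS and 2 NS libraries in A and 2 SS and 2 NS libraries in B. Within A, however, the 3 SS libraries were the 3 with the most bta-miR-143, so that shedding group and content of bta-miR-143 cannot be told apart inside A. In B the order was another, with NS 108 highest and SS 294 lowest.

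**Figure D1:**
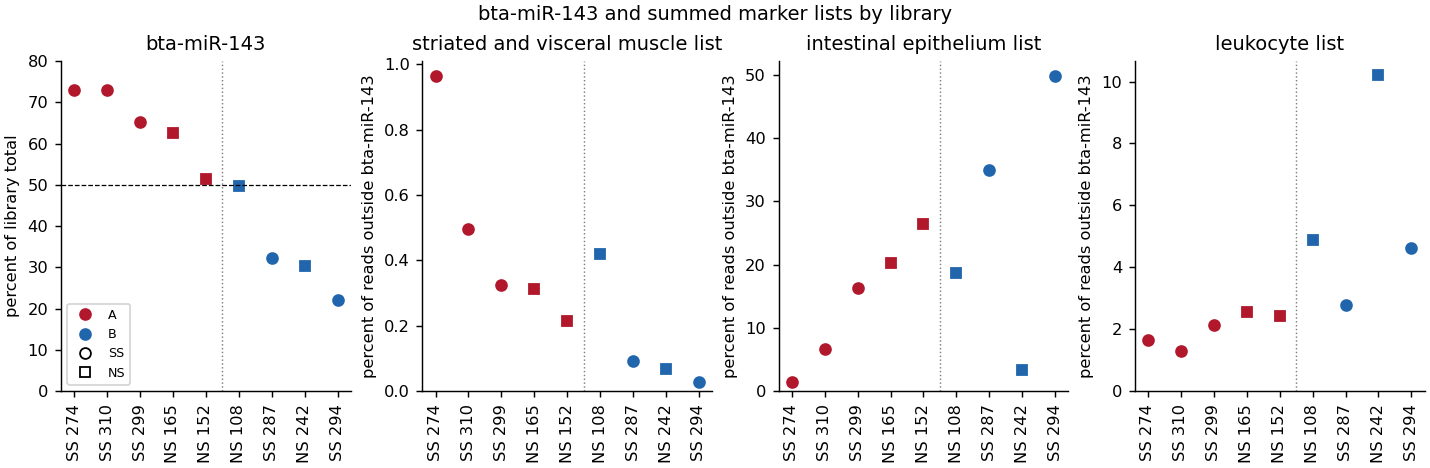
bta-miR-143 as a percentage of the library total, and summed muscle, epithelial and leukocyte lists as a percentage of the reads outside bta-miR-143, with 1 point for each library. Red marks A and blue B, circles SS and squares NS, the dashed line is the limit of 50% and the dotted line parts the sides. The leukocyte sum lies between 1.30% and 2.57% in A and between 2.77% and 10.2% in B, whereas the epithelial sum of NS 242 (3.27%) lies among the lowest of all 9 libraries.

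Across all miRNAs the sides differed in few members. Of 515 miRNAs in the table, 248 reached 10 RPM outside bta-miR-143 in at least 4 libraries and were compared, and 267 did not. Of the 248, 116 had a higher and 132 a lower mean in A, the median log2 difference was -0.07, and 49 differed by more than 2-fold, 24 of them higher and 25 lower in A. In 8 of the 248 miRNAs (3.23%) all libraries of A lay below all of B with a mean difference of more than 2-fold, and in 2 (0.806%) all lay above, 10 in all (4.03%). Without the condition on size, 14 miRNAs (5.65%) had sides that did not overlap, 11 lower (4.44%) and 3 higher (1.21%) in A. The spread of log2 levels was smaller in A than in B for 165 of the 248 miRNAs, with a median SD of 0.557 in A and 0.774 in B. In the deposited values, in which the larger share of bta-miR-143 lowers all other miRNAs of A, the median difference was -0.96 and 219 of the 248 miRNAs (88.3%) had a lower mean in A, and all differences below refer to the rescaled values.

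The partner of bta-miR-143 in its cluster, bta-miR-145, varied with it in part. It reached 10571, 5956, 4697, 3335 and 2090.2 RPM outside bta-miR-143 in the libraries of A and 3395, 3808, 1769.9 and 992 in those of B. The mean log2 difference of A minus B was 1.08 (SD of log2 levels 0.88 in A, n = 5, and 0.90 in B, n = 4), and the sides overlapped, because NS 165 and NS 152 lay below both NS 108 and SS 287. Without SS 294 the difference was 0.70. In A its order followed that of bta-miR-143 exactly, and SS 274 had 5.06 times the level of NS 152. The ratio of bta-miR-143 to bta-miR-145, which does not depend on any scaling, ranged between 230.2 and 479.5 in A and between 119 and 275 in B. SS 274 and SS 287 had the lowest ratios of their sides, so the 2 miRNAs of the cluster did not vary in a fixed proportion.

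The miRNAs of striated and visceral muscle were higher in A than in B on average. miR-1 and miR-133a, which are transcribed together and are best known from heart and skeletal muscle, are also present in the smooth muscle of the gut, and miR-490 lies in a muscarinic receptor gene in humans. Of the 8 miRNAs on the list, 5 passed the filter on low values, but bta-miR-499 passed it through 4 libraries of A alone, with 0 libraries of B at 10 RPM, and is left out of the counts. The other 4 had a higher mean in A, with a median log2 difference of 2.07 against -0.07 over all 248 miRNAs, and each overlapped between the sides. The sum of all 8 was 0.963, 0.497, 0.325, 0.311 and 0.214% of the reads outside bta-miR-143 in A and 0.419, 0.091, 0.0679 and 0.0268% in B.

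bta-miR-1 reached 356, 226, 177, 129 and 54.3 RPM outside bta-miR-143 in A and 60.0, 22.8, 19.9 and 8.31 in B, and its log2 difference of 2.79 was the largest of all miRNAs in favour of A. A single pair of libraries overlapped, NS 152 and NS 108, and the value of SS 294 rested on 10 reads. bta-miR-133a, at 8398, 4069.9, 2548, 2596 and 1882 in A and 3658, 679.7, 587 and 203 in B, differed by 2.18. NS 108 lay above 3 of the 5 libraries of A, and the other 3 libraries of B lay below all of A. bta-miR-490 was measured at 680.5, 564, 419, 297 and 162 in A and 391, 156.7, 36.9 and 38.2 in B, a log2 difference of 1.95, and NS 108 was again the only library of B inside the range of A. bta-miR-133b differed by 1.42, and bta-miR-499 reached at most 22.5 RPM in any library. The overlap came from the 2 libraries nearest the limit: without NS 108, 3 of the 4 miRNAs were more than 2-fold higher in A with no overlap (8 of all 248, 3.23%), without NS 152 it was 1 of the 4 (5 of all 248, 2.02%), and without both all 4 were (14 of all 248, 5.65%), with a median log2 difference of 3.04. The omission of both was chosen after the data had been seen, and leaving libraries out can only add to the miRNAs without overlap.

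The epithelial miRNAs did not divide the libraries as the muscle miRNAs did. All 12 measured members of the list (14 names) passed the filter and had a lower mean in A, with a median log2 difference of -0.67, yet for none of the 12 were the sides without overlap. Their sum was 1.43, 6.68, 16.3, 20.2 and 26.4% of the reads outside bta-miR-143 in A and 18.7, 35.03, 3.27 and 49.8% in B. In A the libraries thus ranked in the reverse order of their bta-miR-143, while in B the order was broken by NS 242, which had the second lowest epithelial sum of all 9 libraries.

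bta-miR-192, the most abundant epithelial miRNA, was measured at 11005, 45182, 116459, 131473 and 150236 RPM outside bta-miR-143 in A and at 117709, 261456, 22959 and 334865 in B (log2 difference -0.94, SD 1.58 in A and 1.75 in B). SS 274 and NS 242 were the 2 lowest libraries and stood on opposite sides. bta-miR-215, which shares the seed of bta-miR-192, ranged from 1307 to 59078 in A, with a median of 12517, and reached 16008, 36385, 4266 and 120971 in B, a difference of -1.04. bta-miR-200b stood at 344, 2781, 8704, 8738 and 12894 in A and 13920.5, 6845, 668 and 11514 in B, with a difference of -0.40. For bta-miR-375, which is typical of enteroendocrine and other secretory cells, the values were 439.7, 4346, 15400.3, 26520.3 and 20927 in A and 22667, 19314, 2149 and 6734 in B, with a difference of -0.36. Each of the 4 was lowest in SS 274 and next lowest in NS 242.

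bta-miR-194, which is transcribed together with bta-miR-192 and with bta-miR-215, followed both with a log2 difference of -1.10. Its ratio to bta-miR-192 lay between 0.0245 and 0.0632 in A and between 0.0358 and 0.0618 in B, so that the sides overlapped in full. The ratio of bta-miR-200b to bta-miR-192 lay between 0.0313 and 0.0858 in A and between 0.0262 and 0.118 in B, and the highest ratio was that of NS 108. The remaining members, bta-miR-141, bta-miR-182, bta-miR-183, bta-miR-200a, bta-miR-200c, bta-miR-429 and bta-miR-96, differed by -1.24 to -0.09. The size of the list's difference rested on 2 libraries: the median was -1.41 without NS 242, when 1 of the 12 miRNAs was more than 2-fold lower in A with no overlap (6 of all 248, 2.42%), and 0.10 without SS 274, when 5 of the 12 were lower in A, and -0.59 without both.

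bta-miR-205, typical of stratified squamous epithelium such as that on the anal side of the junction, was the one squamous miRNA of 3 to pass the filter. It was detected at 0.75, 0.537, 8.38, 12.9 and 365 RPM outside bta-miR-143 in A and 60.0, 48.6, 2.84 and 0.831 in B. The values ranged from 1 read to 349 reads in a library and were highest in NS 152, NS 108 and SS 287, which are neighbours in the order by bta-miR-143. bta-miR-205 did not separate the sides (log2 difference -0.20), and the 2 libraries at the limit, NS 152 and NS 108, held the 2 highest values.

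**Figure D2:**
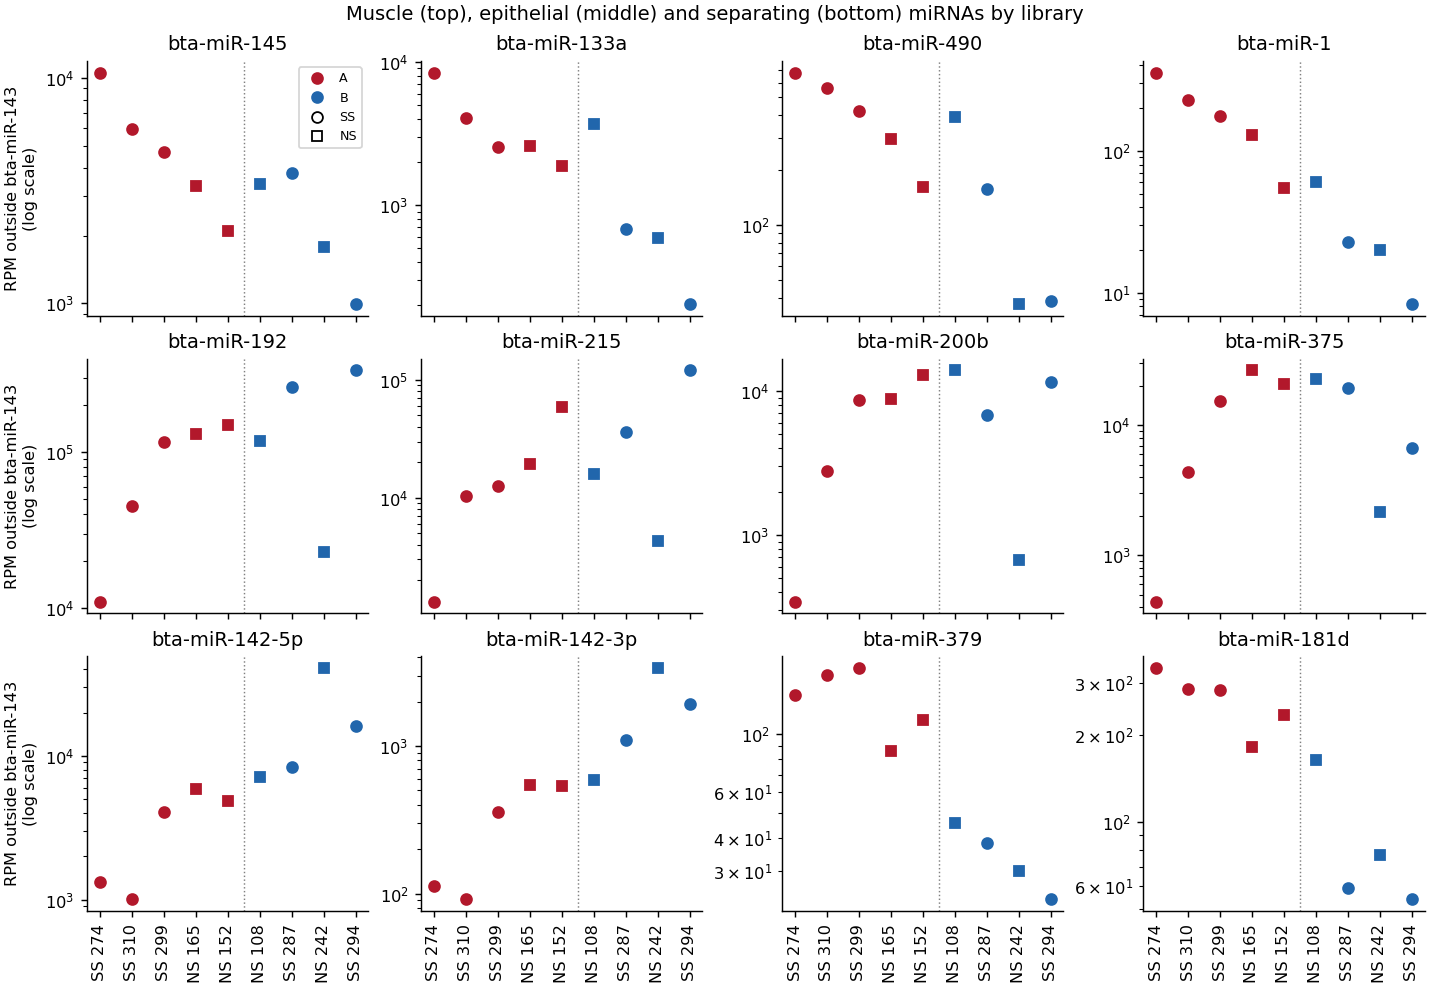
RPM outside bta-miR-143 on a log scale for 12 miRNAs in each library, with libraries ordered from the highest to the lowest content of bta-miR-143. Red marks A and blue B, circles SS and squares NS, and the dotted line parts the sides. The muscle miRNAs of the top row are highest in SS 274 and lowest in SS 294 or NS 242, the epithelial miRNAs of the middle row are lowest in SS 274 and NS 242, and the 4 miRNAs of the bottom row do not overlap between the sides.

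The measurements thus bear out only a part of the description of A as muscle-rich and B as mucosa-rich tissue. Muscle miRNAs were higher in A, but NS 108 carried more bta-miR-133a than 3 and more bta-miR-490 than 2 of the 5 libraries of A. Epithelial miRNAs were abundant in SS 287 and SS 294, but NS 242 was poor in them and NS 165 and NS 152 of A had higher epithelial sums than NS 108. The sides are therefore called by the content of bta-miR-143 alone.

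Both arms of bta-miR-142 headed the miRNAs that were lower in A without overlap. The gene is active in lymphocytes and myeloid cells and is hardly used outside the blood lineage. bta-miR-142-5p stood at 1329, 1001, 4069.5, 5915 and 4841 RPM outside bta-miR-143 in A and at 7176, 8379, 40866 and 16086 in B, 5.14-fold higher in B on the log2 mean (log2 difference -2.36, SD 1.16 in A and 1.14 in B). bta-miR-142-3p stood at 112, 91.2, 359, 545 and 533 in A and at 591, 1096, 3376 and 1924 in B, with a log2 difference of -2.49. NS 242 had the highest value of either arm and SS 310 the lowest, and the lowest library of B, NS 108, stood 1.21-fold above the highest of A, NS 165, for the 5p and 1.09-fold for the 3p arm. The ratio of the 5p to the 3p arm was alike on the sides, between 9.09 and 11.9 in A and between 7.65 and 12.1 in B.

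The other leukocyte miRNAs pointed the same way with overlap. All 10 members of the list passed the filter and had a lower mean in A, with a median log2 difference of -1.17, and the arms of bta-miR-142 were the only 2 without overlap. Without SS 287, which had the lowest leukocyte sum of B, 5 of the 10 had no overlap and were more than 2-fold lower in A, and the count over all 248 miRNAs rose from 8 to 16 (6.45%). It was 3 of the 10 without NS 108 (14 of all 248 lower, 5.65%). When any other single library was left out it was 2 of the 10 (5 to 10 of all 248 lower). The sum of the 10 was 1.65, 1.30, 2.15, 2.57 and 2.41% of the reads outside bta-miR-143 in A and 4.88, 2.77, 10.2 and 4.62% in B, and here the sides did not overlap.

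bta-miR-181a, the most abundant of them and a regulator of lymphocyte receptor signalling in the mouse, was measured at 12709, 10151, 13376, 15414 and 14813 RPM outside bta-miR-143 in A and 36182, 13510.2, 43795 and 20287 in B (log2 difference -0.96). SS 287 lay inside the range of A. bta-miR-146a, a feedback regulator of NF-kB signalling, was measured at 829.8, 602, 1152, 738 and 792 in A and 802, 2326, 2261 and 4496 in B (log2 difference -1.38), and its overlap came from NS 108. bta-miR-155, which takes part in lymphocyte activation, stood at 134, 149, 454, 846 and 805 in A and 882, 355, 1767 and 413 in B (log2 difference -0.93). In both sides its NS libraries were higher than its SS libraries. bta-miR-150, a miRNA of mature lymphocytes that was picked out after its values had been seen, ranged from 47.2 to 798 in A and from 438 to 7296 in B, where NS 242 was the highest (log2 difference -2.38).

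bta-miR-423-5p was the next of the separated miRNAs, at 90.8, 48.3, 101, 138 and 77.3 RPM outside bta-miR-143 in A and 917, 214, 669 and 170.3 in B (log2 difference -2.16). In contrast to bta-miR-142, the opposite arm did not follow it: bta-miR-423-3p was measured at 1191, 724, 978, 2085 and 1709 in A and 3649, 669.8, 1783 and 1016 in B, a log2 difference of -0.22. The ratio of the 5p to the 3p arm within a library, which was worked out after the values had been seen, lay between 0.0452 and 0.103 in A and between 0.168 and 0.375 in B. NS 242 had the highest ratio and NS 152 the lowest. The sides thus did not overlap in the ratio either, and the ratio is the same under every scaling.

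The remaining miRNAs that were lower in A without overlap were less abundant or differed less. bta-miR-363, a member of a paralog of the miR-17-92 cluster, stood at 4.502, 8.05, 9.21, 14.0 and 15.7 RPM outside bta-miR-143 in A and 34.3, 21.2, 69.6 and 39.9 in B (log2 difference -1.89), which corresponded to between 6 and 49 reads in a library. bta-miR-1388-3p stood at 9.003, 11.3, 28.5, 25.8 and 27.2 in A and 51.4, 66.2, 48.3 and 127 in B (log2 difference -1.83). bta-miR-16b, which neighbours bta-miR-15b and belongs to a family that restrains the cell cycle, was measured at 1030.1, 739, 1322, 2349.7 and 2342 in A and 2721, 2376, 3895 and 2825 in B (log2 difference -1.04). For bta-miR-16b the lowest library of B, SS 287, was only 1.01 times as high as the highest of A, NS 165, so its separation was narrow. bta-miR-32 differed by -1.09 and bta-miR-505 by -1.05, the latter with 6 to 49 reads in a library.

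Only bta-miR-379 and bta-miR-181d were more than 2-fold higher in A without overlap. bta-miR-379, from the imprinted DLK1-DIO3 miRNA cluster, reached 142, 168, 179, 86.0 and 113 RPM outside bta-miR-143 in A and 45.7, 38.3, 29.8 and 23.3 in B, 3.91-fold higher in A (log2 difference 1.97, SD 0.43 in A and 0.41 in B). Its lowest library in A, NS 165, was 1.88 times as high as its highest in B, NS 108. Of the 49 miRNAs of the cluster 16 passed the filter, 9 were higher and 7 lower in A, and the median log2 difference was 0.15, or -0.72 in the deposited values. This balance rested on single libraries: without NS 242 only 1 of the 16 was lower in A, the median was 0.54 and 2 met both conditions (5 of all 248 miRNAs, 2.02%), and without SS 294, 11 of the 16 were lower and the median was -0.32. Its most abundant members after bta-miR-127 (0.46) were bta-miR-411a (0.69), bta-miR-381 (0.10) and bta-miR-410 (-0.26), all with overlap.

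bta-miR-181d reached 339, 287, 284, 182 and 233 RPM outside bta-miR-143 in A and 163, 59.0, 76.7 and 54.0 in B (log2 difference 1.69). NS 165 and NS 108 came closest to each other, 1.12-fold apart. bta-miR-181c, which neighbours it in the genome, differed by 0.38 with overlap, and the ratio of bta-miR-181d to bta-miR-181c lay between 0.161 and 0.345 in A and between 0.0749 and 0.121 in B. bta-miR-181a and bta-miR-181b, of the same seed family but another cluster, had lower means in A (log2 differences -0.96 and -0.31). The family thus held members of both directions.

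Within the shedding groups the 10 separated miRNAs cannot change direction, because their sides do not overlap, and only the size of the difference is described here. bta-miR-142-3p differed by -3.23 between the 3 SS libraries of A and the 2 of B, and by -1.39 between the 2 NS libraries of each side. bta-miR-379 differed by 2.40 among SS and 1.39 among NS. The difference was larger among SS for 9 of the 10, and bta-miR-423-5p was the exception, with -1.31 among SS and -2.91 among NS. Of the 10, bta-miR-1388-3p, bta-miR-142-5p, bta-miR-363, bta-miR-379 and bta-miR-423-5p met both conditions under each of 5 other scalings (the deposited values, bta-miR-192 or the 10 most abundant miRNAs also left out of the total, median of ratios, and TMM, the trimmed mean of M-values), whereas bta-miR-142-3p and bta-miR-32 met them under 2 of the 5. When 1 library was left out, the differences of bta-miR-16b, bta-miR-32 and bta-miR-505 could fall under 2-fold, and the smallest were -0.81 without SS 310, -0.74 without NS 242 and -0.79 without SS 274, respectively.

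**Figure D3:**
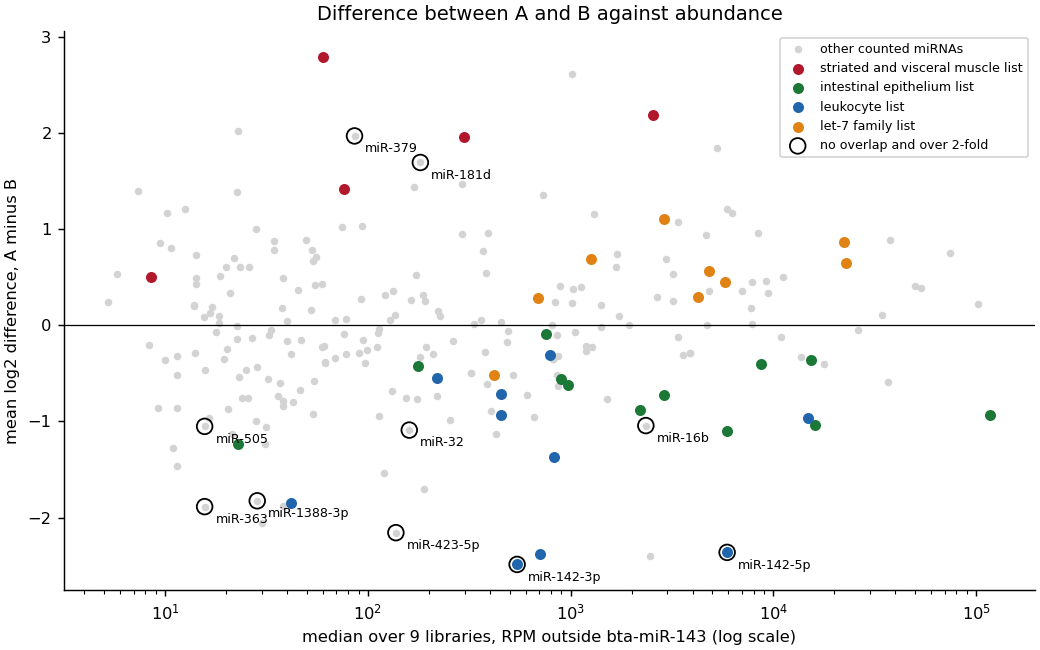
Mean log2 difference of A minus B against the median RPM outside bta-miR-143 over the 9 libraries (log scale), with 1 point for each of the 248 miRNAs. Colours mark 4 lists, and rings mark the 10 miRNAs without overlap between the sides and with a difference of more than 2-fold. The muscle points lie above 0, the epithelial and leukocyte points below 0, and the ringed points span -2.49 to 1.97. One muscle point, bta-miR-499, passed the filter through 4 libraries of A alone and is drawn but not counted.

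Among the 10 most abundant miRNAs the log2 differences ran from -0.94 for bta-miR-192 to 0.89 for bta-miR-10a. bta-miR-10b, which lies in a HOX gene cluster, was measured at 96402, 102289, 118909, 102099 and 58483 RPM outside bta-miR-143 in A and 92606, 166762, 138086 and 19356 in B (log2 difference 0.22), and SS 294 was the lowest library. Its relative bta-miR-10a differed by 0.89, and in SS 310 it reached 182678 against 29499 to 69142 in the other libraries of A. bta-miR-27b was measured at 119463, 83409, 74112, 78092 and 61246 in A and 79051, 44663, 51256 and 29915 in B (log2 difference 0.75). Only NS 108 of B lay inside the range of A.

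bta-miR-26a and bta-miR-26c, whose counts are near-identical and cannot be told apart here, differed by 0.39 and 0.41. bta-miR-21-5p, which is commonly raised in inflamed or proliferating tissue, differed by -0.59: the 4 libraries of B lay between 36694 and 38243, while A ranged from 13557 to 48304. bta-miR-148a differed by 0.11, bta-miR-22-3p by -0.05 and bta-let-7f by 0.65. None of the 10 most abundant miRNAs was without overlap between the sides over the 9 libraries. Without SS 287, bta-miR-10a met both conditions (log2 difference 1.04), as 1 of 5 higher among all 248 (2.02%). Without NS 152 and NS 108, bta-miR-27b met them (1.09), as 1 of 14 higher among all 248 (5.65%). The latter omission was chosen after the data had been seen.

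Fibroblast and other connective tissue miRNAs were divided: 7 of 11 had a higher mean in A, and the median log2 difference was 0.22 and turned to -0.71 in the deposited values. It was 0.03 without SS 294 and 0.57 without SS 287. bta-miR-100, however, was measured at 25499.9, 47470.2, 39200.1, 3615 and 5254 RPM outside bta-miR-143 in A and 13255, 2318, 2561 and 4453 in B (log2 difference 1.84). The high values were those of the 3 SS libraries, and NS 165 and NS 152 lay below NS 108. bta-miR-125b showed the same division, at 15987, 17442, 17874, 5011 and 5574 in A and 14020.4, 1617, 6232 and 3573 in B (log2 difference 1.17). bta-miR-152, at 611, 503, 588, 415 and 393 in A and 317, 273, 276 and 175 in B, was the one member without overlap, but its difference of 0.96 was under 2-fold (1.02 to 1.06 when NS 165, NS 152 or NS 108 was left out).

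The let-7 family, whose members share a seed and are abundant in differentiated tissue, had a higher mean in A for all but bta-let-7d among its 9 members (8 of 9), and the median difference was 0.57 on the log2 scale. bta-let-7a-5p was measured at 29283, 20246, 23311, 41196 and 29688 RPM outside bta-miR-143 in A and 21624, 8762, 22414 and 13013 in B (log2 difference 0.86), while bta-let-7i differed by 0.45 and bta-let-7g by 0.57. The family's median turned to -0.36 in the deposited values, and was 0.33 without SS 287 and 0.86 without NS 242. The miRNAs of the miR-27, miR-23 and miR-24 clusters were higher in A in 5 of 5 members, with a median of 0.74, which turned to -0.19 in the deposited values. bta-miR-23b-3p differed by 0.94, bta-miR-24-3p by 0.74 and bta-miR-27a-3p by 0.29. No member of these 2 lists met both conditions over the 9 libraries, but single members did when 1 library was left out: bta-let-7c without NS 242 (log2 difference 1.69; 5 of all 248 higher, 2.02%), bta-miR-23b-3p without NS 108 (1.28; 8 of all 248, 3.23%) and bta-miR-24-3p without SS 287 (1.01; 5 of all 248, 2.02%).

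Members of the miR-17-92 cluster and its paralogs, which promote proliferation and are strongly expressed in lymphoid germinal centres, had a lower mean in A in 10 of 11 cases that passed the filter of 14, with a median log2 difference of -0.69. bta-miR-363 was the only one to meet both conditions. bta-miR-92a, the most abundant, was measured at 7503, 6419.6, 13873, 23324 and 21996 RPM outside bta-miR-143 in A and 30425, 7243, 20719 and 17706 in B (log2 difference -0.40), and was lowest in SS 310, SS 287 and SS 274. bta-miR-19b differed by -0.72, bta-miR-25 by -0.31 and bta-miR-93 by -0.07. The omission of NS 152 and NS 108 together was chosen after the data had been seen. Without them all 11 were lower in A and 5 met both conditions, while the count over all 248 miRNAs rose from 8 to 18 (7.26%). Leaving libraries out can only add to the miRNAs without overlap, which rose here from 14 to 40 of the 248. In the miR-15 and miR-16 family 5 of 7 had a lower mean in A, with a median of -0.76. Over the 9 libraries bta-miR-16b alone met both conditions. It was 3 of the 7 without SS 287 (16 of all 248 lower, 6.45%), 2 of the 7 without NS 108 (14 of all 248, 5.65%), and 0 of the 7 without SS 274, SS 310 or NS 242, and the median was -0.26 without NS 242. bta-miR-195 (0.21), bta-miR-497 (0.03) and bta-miR-16a (-0.23) differed little.

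Lists of other cell types and families had medians that moved with single libraries. The endothelial bta-miR-126-5p differed by 0.34 and bta-miR-126-3p by -0.00021, and both were highest in SS 274, at 19063 and 4623 RPM outside bta-miR-143. The erythrocyte miRNAs bta-miR-451 (-0.16) and bta-miR-486 (0.24) were both highest in NS 242, at 784 and 3046, so that this library held the most leukocyte and the most erythrocyte miRNAs. Without NS 242 the median of the endothelial list moved from 0.17 to 0.46, that of the erythrocyte list from 0.04 to 0.79 and that of the neuronal list from -0.15 to -0.67, and without SS 274 the endothelial median was -0.07 and the erythrocyte median -0.14. Of the neuronal list 5 of 11 passed the filter with a median of -0.15, among them bta-miR-9-5p (-0.04), bta-miR-218 (0.15) and bta-miR-7 (-0.15), while bta-miR-138, at 1.501, 4.29, 11.7, 30.1 and 31.3 in A and 51.4, 29.0, 31.3 and 88.0 in B, differed by -2.05 with 2 reads in its lowest library. The miR-29 family, which represses collagens, had a median of -0.08, or -0.29 without SS 274 (bta-miR-29a -0.77, bta-miR-29b -0.08 and bta-miR-29c 0.54). The miR-30 family had a median of 0.34 (-0.59 in the deposited values and 0.08 without SS 274), with 5 of 6 members higher in A (bta-miR-30a-5p 0.50, bta-miR-30c 0.60, bta-miR-30d 0.01 and bta-miR-30e-5p 0.18). None of these miRNAs was without overlap between the sides over the 9 libraries.

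Whole profiles did not fall into 2 groups along the limit. The distance between libraries was taken as the root-mean-square of their log2 differences over the 248 miRNAs. It had a median of 1.22 within A (10 pairs), 1.49 within B (6 pairs) and 1.45 between the sides (20 pairs), so that 2 libraries of B were about as far apart as a library of A from one of B. All 5 libraries of A had their nearest library in A, and in each case in the same shedding group. NS 152 was on average as far from the other libraries of A (1.201) as from those of B (1.198). In B, the nearest library of NS 108 was NS 165 at 0.79, that of SS 287 was NS 152 at 1.06 and that of NS 242 was NS 165 at 1.30, all of them in A, and SS 294 alone had its nearest library, SS 287, on its own side. Over both sides, SS 287 was the only library whose nearest library came from the other shedding group. The closest pair of all was NS 165 and NS 152 at 0.61, and the farthest was SS 274 and SS 294 at 2.19, the libraries with the most and the least bta-miR-143.

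**Figure D4:**
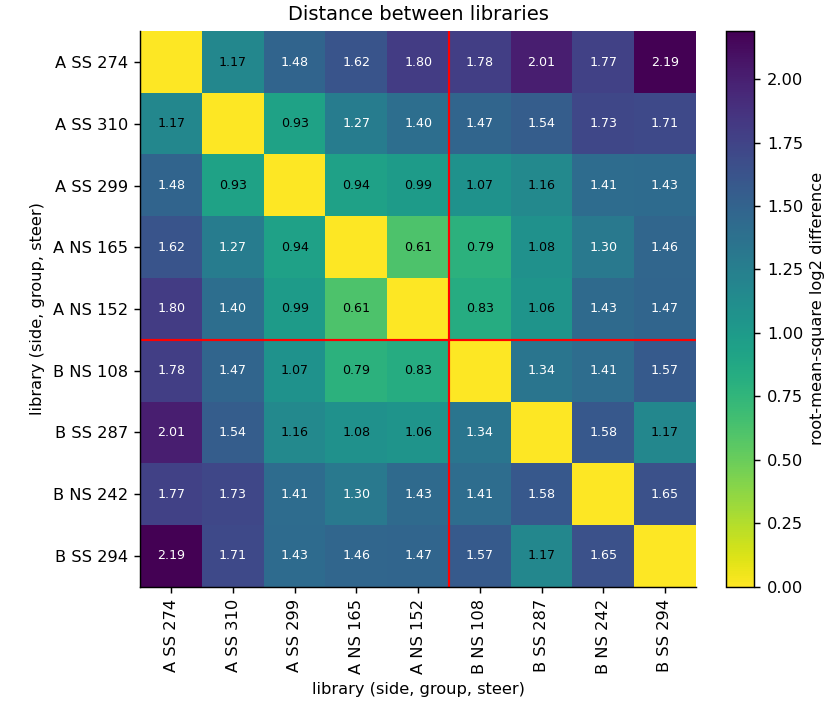
Root-mean-square log2 difference over 248 miRNAs between each pair of libraries, ordered by content of bta-miR-143, with red lines between the sides. The block within B (lower right) holds values from 1.17 to 1.65 and is no lighter than the blocks between the sides, while NS 108 lies within 0.83 of both NS 165 and NS 152.

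The shedding groups were then compared outside bta-miR-143, since the shedding label was not used to form the sides. No miRNA reached an adjusted p below 0.1 with a more than 2-fold difference between SS and NS (limma on log2 values with Benjamini-Hochberg adjustment over 248 miRNAs, 0 called, 0%), and 40 had an unadjusted p below 0.05, 38 of them lower in SS. edgeR called 0, with 28 below 0.05, of which 15 were higher and 13 lower in SS. DESeq2 called 10 (4.03%), 6 higher and 4 lower, with 35 below 0.05, of which 19 were higher and 16 lower. Under limma with TMM scaling 20 miRNAs were below 0.05, 9 higher and 11 lower, and with median-of-ratios scaling 22, 10 higher and 12 lower. The split of the miRNAs below 0.05 thus moved with the scaling. All 40 kept their direction under both scalings and by edgeR and DESeq2, which could hardly come out otherwise. They had been picked for a low p, and the smallest difference in size, that of bta-miR-93, was -0.64. The median over all miRNAs moved only from -0.47 to -0.0004 with TMM and to -0.028 with median-of-ratios scaling. With side as a second term the count by limma was again 0 (0%), with 52 below 0.05, and the smallest adjusted p was 0.109 against 0.117 without it. Over all miRNAs the median log2 difference of SS minus NS was -0.47 and 51 of 248 were higher in SS, whereas 124 of 248 were higher in SS with TMM scaling, which sets the middle of the profile to no change.

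The 5 miRNAs with the smallest p were lower in SS on both sides. They had been picked by p over the same 9 libraries, so the shared direction is no separate support. bta-miR-128 differed by -1.39 (SE 0.303, adjusted p = 0.117 by limma), and by -1.59 within A and -1.12 within B. For bta-miR-92b the difference was -1.82 (SE 0.399), with -1.69 in A and -1.91 in B. bta-miR-155 differed by -1.93 (SE 0.457), with -1.98 in A and -1.70 in B, and all 5 SS libraries, at 134 to 454 RPM outside bta-miR-143, lay below all 4 NS libraries, at 805 to 1767. bta-miR-423-3p (-1.29) and bta-miR-222 (-1.54) completed the 5.

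Some miRNAs differed between SS and NS in opposite directions on the 2 sides. These values are given with no test, because the sides were formed on a readout of the same libraries, and the miRNAs were picked after their values had been seen. bta-miR-100 differed between SS and NS by 3.05 log2 units within A and by -0.86 within B. For bta-miR-125b the difference was 1.69 in A and -1.96 in B. The epithelial bta-miR-215 and bta-miR-194 went the other way, by -2.61 and -2.48 in A and by 3.00 and 2.17 in B. Each side held 2 or 3 steers of a shedding group. Since SS libraries had the most bta-miR-143 in A, and NS 108 had the most and SS 294 the least in B, these differences cannot be told apart from the content of bta-miR-143.

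**Figure D5:**
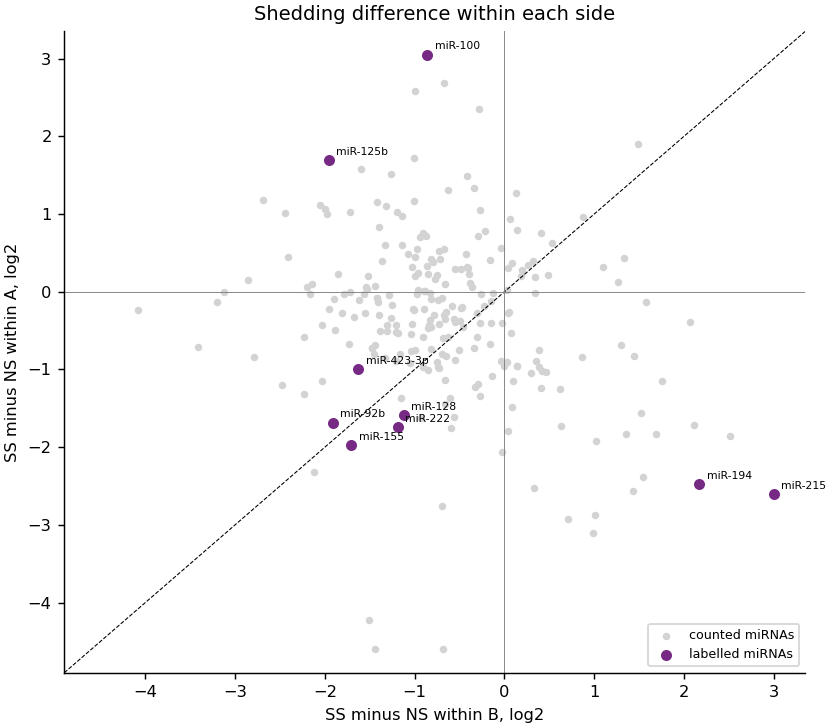
Log2 difference of SS minus NS within A (vertical) against that within B (horizontal) for 248 miRNAs, with no test. Purple marks 9 labelled miRNAs, the 5 with the smallest p between SS and NS and 4 picked for opposite directions, and the dashed line marks equal differences. The former lie below 0 on both axes, whereas bta-miR-100 lies at 3.05 in A and -0.86 in B and bta-miR-215 at -2.61 in A and 3.00 in B.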

How the data were processed

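The table was deposited as 1 value for each of 515 bovine miRNAs in each of 9 steers; 0 columns were left unused. The authors mapped small RNA reads to miRBase miRNAs with sRNA toolbox and scaled the counts to 1000000 reads (RPM). Bowtie and edgeR are named in their processing notes without versions. The deposited signal values were whole multiples of 1 read in each library (100% of values, largest deviation 1.07e-08 reads), so whole reads were recovered from them. The summed values exceeded 1000000 by 2.49% to 8.94%, and percentages of bta-miR-143 refer to 1000000.

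bta-miR-143 was removed and the rest rescaled to 1000000 in each library. miRNAs with at least 10 in at least 4 libraries were kept, and log2(value + 1) was used, so that differences of low miRNAs are understated. A minus B is a difference of mean log2 values; a miRNA was counted as separated when no library of A overlapped B and the difference exceeded 2-fold. SS and NS were compared with limma 3.58.1 (trended variance, Benjamini-Hochberg adjusted p below 0.1 and more than 2-fold), checked on simulated data, and on recovered reads with edgeR 4.0.16 (quasi-likelihood) and DESeq2 1.42.0 in R 4.3.3. Exact binomial intervals were computed with SciPy 1.17.1 in Python 3.11.15.

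The text names the 5 markers of the division, up to 10 separated miRNAs per direction, the 10 most abundant miRNAs, the 4 most abundant members of each of 16 lists, and the 5 smallest p of SS against NS; others are stated as picked after their values had been seen or lie in a named list. The sides, the lists and the tests were chosen with earlier results of these data known. RefSeq matched 248 of 249 miRNAs by name and served only to find neighbouring genes. An interaction of side and shedding group, fitted after the data had been seen, is not reported, since the sides follow from bta-miR-143 in the same libraries. Other scalings, filters and pseudocounts, and the omission of libraries, were tried as alternatives. No miRNA sequences were used here.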

Additional observations from a re-analysis of the deposited data

Results flagged for a closer look

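Among 142 sets of values, each the libraries of 1 side for 1 named miRNA, 15 had a library far from the others of its side. Dixon's criterion was applied to the unlogged values. Chance gives about 1 in 20 only if such values are normally distributed, which was not tested, and skewed values can be flagged more often. All values are RPM outside bta-miR-143. In A, SS 274 stood above the other 4 libraries for bta-miR-126-5p (19063 against 9006 to 9740), bta-miR-126-3p (4623 against 1449 to 2176), bta-miR-29c (1026 against 332 to 442), bta-miR-30e-5p (16980 against 6380 to 8566) and bta-miR-30c (3988 against 1659 to 2055). SS 310 stood above the others for bta-miR-10a (182678 against 29499 to 69142) and below them for bta-miR-411a (2427 against 2922 to 3006). NS 152 stood apart for bta-miR-205 (365 against 0.537 to 12.9).

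In B, NS 242 stood above the other 3 libraries for bta-miR-32 (504 against 166 to 220), bta-miR-451 (784 against 54.3 to 87.2), bta-miR-218 (162 against 31.4 to 38.2), bta-miR-29a (3688 against 1381 to 1655) and bta-miR-16a (2263 against 1096 to 1274). NS 108 stood apart for bta-miR-133a (3658 against 203 to 680), and SS 287 for bta-miR-10a (44617 against 28779 to 29434). bta-miR-32 is one of the 10 separated miRNAs, and it differed by -0.74 when NS 242 was left out.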

How the results depend on the processing

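The 8 miRNAs lower and 2 higher in A without overlap and by more than 2-fold changed in number with the processing and with the libraries. The counts were 44 and 1 with the deposited values, where 88.3% of miRNAs had a lower mean in A against 53.2% in the rescaled values and the median over all miRNAs shifted by -0.89. They were 13 and 2 with bta-miR-192 also left out, 5 and 2 with a filter at 50, 7 and 4 without NS 242 and SS 274, and 18 and 14 without NS 152 and NS 108 (the last 2 chosen after seeing the data). When 1 library was left out at a time, 5 to 16 were lower and 2 to 8 higher, with 5 and 2 without SS 310, 14 and 8 without NS 108, 16 and 5 without SS 287, 10 and 5 without NS 152 and 6 and 5 without NS 242. No named miRNA that was separated changed direction under the other scalings. This was fixed in advance, because each differed by more than 2-fold and the largest shift of the median was the -0.89 of the deposited values. When libraries were left out none of the separated miRNAs could change direction either, because their sides do not overlap. Under TMM and median-of-ratios scaling the counts were 6 and 3, with 6 of the 10 shared.

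Between SS and NS, the 0 miRNAs called by limma became 1 with no filter, 5 with a filter at 50, 10 with DESeq2, 1 without NS 242 and SS 274, and 0 to 4 when 1 library was left out (1 without SS 299, 1 without NS 242 and 4 without SS 294). Apart from the constructed effect of the deposited values, the cause was not tested. No paired analysis was possible because no steer number occurs in both groups. NS 108 was the shallowest library, and 1 of its reads was worth 2.86 RPM outside bta-miR-143, which limits miRNAs near the filter.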

Other observations

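In 2 of the 248 miRNAs a single library with at least 1 read lay more than 10-fold below each of the other 8, which was noticed after the values had been seen. bta-miR-3604 was represented by 1 read in SS 274 (0.750 RPM outside bta-miR-143, 95% Poisson interval 0.0190 to 4.18, counting error only), while the other 8 libraries held 1643 to 8061. bta-miR-196b, which lies in a HOX gene cluster, was represented by 4 reads in SS 294 (3.32, interval 0.905 to 8.51), and by 261 to 1642 in the others. For both, the upper bound of the interval lay below the lowest of the other 8 libraries. No miRNA had a single library more than 10-fold above all others.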
